A study of Mus musculus with 8 samples.

Results

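Marco, Msr1, Cd36 and Lgals3 were followed across lung leukocytes of mice given silica or saline, with and without lymphocytes. The 4 genes were chosen by symbol in the platform's probe table, and they are 4 of the 12446 genes and 5 of the 16251 probes in the deposited table. Cd36 had 2 probes and the other 3 genes had 1 probe each, and all 5 probes had a value on all 8 arrays. Marco, Msr1 and Cd36 were thus measured as 3 cell surface scavenger receptors and Lgals3 as the lectin galectin-3.

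The samples were interstitial leukocytes, white blood cells released from digested lung and collected on a Percoll density gradient. RagKO silica and RagKO saline leukocytes came from Rag1-/- mice, whose strain is not given in the sources used here, injected with 300 µg of anti-NK1.1 antibody before the first instillation and then weekly. Rag1-/- mice lack the recombinase that assembles antigen receptors and so make no mature T or B cells, and the antibody removes natural killer (NK) cells, so the deletion and the depletion cannot be told apart in this design. WT silica and WT saline leukocytes came from wild-type C57Bl/6 mice, for which no antibody injection is described. All mice were 6 to 8 weeks old and received 25 µl into the nose once a week, 4 times, holding 1 mg of crystalline silica in the silica groups and sterile saline alone in the saline groups. Each of the 4 groups had 2 arrays, called biological replicates without a statement of how many mice an array holds, so p-values measure the spread between these arrays.

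Scavenger receptors bind polyanionic and lipid ligands and carry particles, microbes and modified lipoproteins into the cell. Marco and Msr1 belong to class A, trimeric receptors with a collagen-like stalk, and both bind silica particles on mouse macrophages; Marco marks alveolar macrophages in the healthy lung. Cd36 belongs to class B, takes up oxidized lipoprotein and fatty acids, is a target of the nuclear receptor PPAR-gamma, and is also made by capillary endothelium, fat cells and platelets. Galectin-3 binds beta-galactosides on glycoproteins, is abundant in macrophages, and gathers on damaged phagosome and lysosome membranes where luminal sugars are exposed.

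RefSeq (build GRCm38.p6) places Marco at chr1:120474538-120505024, Msr1 at chr8:39543232-39642750, Cd36 at chr5:17781690-17888959 and Lgals3 at chr14:47373860-47386167. The promoter table gave a start for 3 of the 4 genes, and their 250 bases before that start are shown to set side by side 1 receptor and 1 lectin that rose after silica in RagKO and 1 receptor that fell. Capitals mark matches, on either strand, to the TATA box (TATAAA), the CCAAT box (CCAAT), the GC box (GGGCGG), the AP-1 motif (TGANTCA), the core of the PU.1 motif (GAGGAA) and the core of the antioxidant response element (TGACNNNGC). The sequences are written 5′ to 3′ on the gene's own strand.
Marco, minus strand, chr1:120505025-120505274: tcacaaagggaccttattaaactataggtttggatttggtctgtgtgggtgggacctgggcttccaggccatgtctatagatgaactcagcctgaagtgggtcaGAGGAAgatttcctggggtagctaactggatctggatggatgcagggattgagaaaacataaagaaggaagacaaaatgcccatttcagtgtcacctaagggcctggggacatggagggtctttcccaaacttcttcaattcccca
Cd36, minus strand, chr5:17835897-17836146: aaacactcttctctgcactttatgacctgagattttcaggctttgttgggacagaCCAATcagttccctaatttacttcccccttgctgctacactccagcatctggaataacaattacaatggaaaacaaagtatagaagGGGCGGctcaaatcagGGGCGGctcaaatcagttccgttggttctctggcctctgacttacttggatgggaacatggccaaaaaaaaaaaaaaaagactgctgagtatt
Lgals3, plus strand, chr14:47373610-47373859: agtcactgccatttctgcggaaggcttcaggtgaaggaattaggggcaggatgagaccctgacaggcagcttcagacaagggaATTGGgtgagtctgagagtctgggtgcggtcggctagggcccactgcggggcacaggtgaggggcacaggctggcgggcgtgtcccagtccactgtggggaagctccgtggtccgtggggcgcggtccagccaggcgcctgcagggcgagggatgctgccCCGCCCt
The Cd36 start used in that table lies inside the gene's annotated span. Within these windows Marco held 1 PU.1 core, which 23.3% of all 32851 promoter windows of this length also hold. Cd36 held 1 CCAAT box (33.8% of windows) and 2 GC boxes (32.7% of windows), and Lgals3 held 1 of each. None of the 3 windows held the letters of the TATA box (12.4% of windows), the AP-1 motif (6.75%) or the antioxidant response element core (10.2%). The share of G and C was 47.6% for Marco, 43.2% for Cd36 and 66% for Lgals3, against a median of 52.4% over all windows. These matches describe letters in the window and no binding was measured.

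Levels are given as log2 ratios of leukocyte RNA (Cy5) to a universal mouse reference RNA (Cy3) on the same 2-channel Agilent array. No source used here names the log base of the deposited values; they were taken to be log10 because of their size, and every log2 value depends on that. A difference is given as a difference of log2 ratios. Each level is relative to that gene's own amount in the reference, so levels are compared between groups and never between genes. Tests are limma contrasts of a model of 4 group means, adjusted with Benjamini-Hochberg over all 11597 genes tested, with a threshold of 0.05.

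The arrays carried between 15661 and 16119 probe values, the pair within a group correlated with r between 0.9778 and 0.9901, and Rag1 itself was not analysed here. All 7 measured T cell genes and all 4 measured B cell genes of the marker lists were lower in RagKO than in WT after silica and after saline, except that relative to leukocyte genes 5 of the 7 T cell genes were lower and 1 was higher after saline. Genes common to leukocytes (10 measured) averaged a log2 ratio of 2.27 to 2.37 in RagKO silica, 1.80 to 1.91 in RagKO saline, 2.51 to 2.66 in WT silica and 2.86 to 2.91 in WT saline. Among them Laptm5 averaged 1.49 in RagKO silica, 0.003 in RagKO saline, 4.23 in WT silica and 4.86 in WT saline. It weighs on every value given relative to leukocyte genes. The mean over the lung epithelium genes (16 measured) was also above the reference RNA on all arrays. Of these genes Epcam, Krt8 and Krt18, named after their values were seen, read below the reference on all 8 arrays. Sftpd, picked in the same way, averaged 8.29 in RagKO silica, 8.56 in RagKO saline, 8.73 in WT silica and 7.80 in WT saline. Each gene is read against its own amount in the reference, so these levels do not give the share of epithelial cells. NK cell genes (8 measured) averaged 1.84 to 2.34 in RagKO silica, 2.36 to 2.40 in RagKO saline, 4.38 to 4.40 in WT silica and 3.73 to 3.77 in WT saline. The RagKO silica arrays differed in sex-linked transcripts, and so did the groups. On its probe A_51_P145453 the X-inactivation transcript Xist read -2.71 and 2.22 in RagKO silica, -2.47 and -2.64 in RagKO saline, 0.82 and 0.48 in WT silica and -0.24 and -0.21 in WT saline. The Y-linked Eif2s3y read 2.42 and -2.22 in RagKO silica, 2.90 and 2.60 in RagKO saline, 0.34 and 1.05 in WT silica and 2.32 and 2.27 in WT saline. The labels used here give no sex, and the part of these differences between groups in the results was not tested. Leaving out either RagKO silica array ended no call for Marco, Msr1, Cd36 or Lgals3. A ribosomal RNA probe (Rn28s1) also moved with the groups, with 0.86 and 0.59 in RagKO silica, 2.43 and 2.08 in RagKO saline, 2.17 and 2.45 in WT silica and 3.67 and 3.71 in WT saline. It was lower after silica in both genotypes and lower in RagKO than in WT, and its part in the results was not tested. In mixed leukocytes a change in the number of cells that carry a transcript cannot be told from a change per cell, and this holds for every difference below.

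Silica moved all 4 genes in RagKO leukocytes, Marco, Lgals3 and Msr1 upward and Cd36 downward, whereas in WT leukocytes only Marco and Cd36 passed the test, both upward. Part of the WT result depended on the setting. The call of Marco was lost without either WT saline array (log2 differences 0.51 and 0.50). That of Cd36 was kept in all 17 alternatives other than the centrings on cell markers. Relative to leukocyte genes Msr1 (0.42, limma adjusted p = 0.0331) and Lgals3 (0.63, limma adjusted p = 0.00861) passed in WT too. Of all genes tested, 32.7% passed in RagKO (16.8% higher, 15.9% lower) and 19.7% in WT (11.5% higher, 8.21% lower). The changes were 4.87-fold for Marco, 3.99-fold for Lgals3 and 2.39-fold for Msr1 in RagKO, with Cd36 1.95-fold lower. The arrays of silica and saline did not overlap for any of the 4 genes in RagKO and for all but Msr1 in WT. Such a separation was also seen for 67.1% of all genes in RagKO and 67.5% in WT. For Lgals3 in WT it was very narrow, with -0.7304 in WT silica replicate 2 and -0.7345 in WT saline replicate 2. RagKO and WT arrays did not overlap for any of the 4 after silica or after saline, as for 79.7% of all genes after silica and 84.9% after saline.

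**Figure D1:**
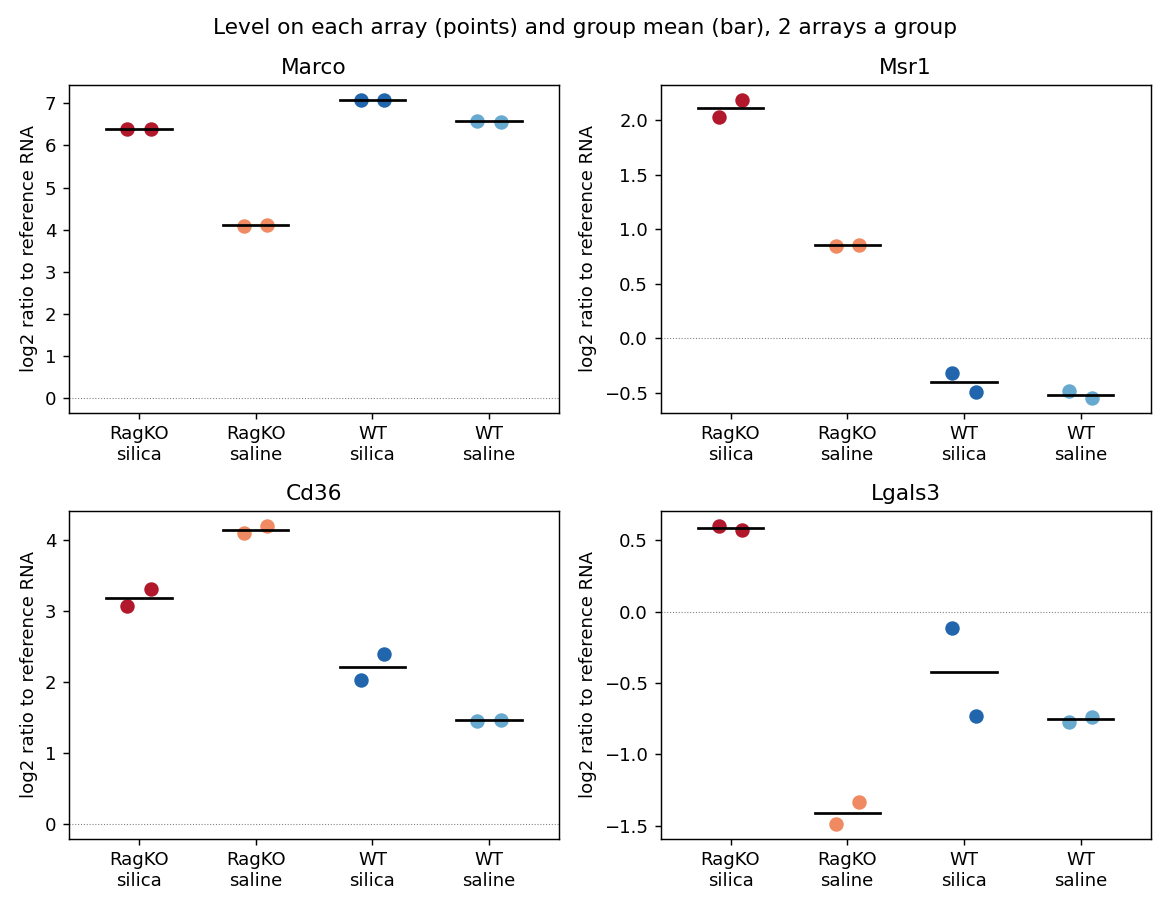
Log2 ratio to the reference RNA (y axis, 1 scale per gene) on each array (points) with the group mean (bar) for RagKO silica, RagKO saline, WT silica and WT saline, 2 arrays a group. Marco was lowest in RagKO saline, Msr1 and Lgals3 were highest in RagKO silica, and Cd36 was highest in RagKO saline.

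Marco, the class A receptor of alveolar macrophages, read 6.38 and 6.39 in RagKO silica and 4.10 and 4.11 in RagKO saline, against 7.07 and 7.08 in WT silica and 6.57 and 6.56 in WT saline. The 2 RagKO saline arrays stood far below the other 6, and no groups overlapped. Silica raised Marco in RagKO by 2.28 (SE 0.10, limma adjusted p = 2.6e-06), and only 0.19% of genes rose as much or more. In WT it rose by 0.51 (SE 0.10, 95% interval 0.29 to 0.73, limma adjusted p = 0.00624), 1.42-fold. The WT call was lost when either WT saline array was left out, with a difference of 0.51 without replicate 1 and 0.50 without replicate 2. Marco had the smallest within-group standard deviation of all genes tested, 0.01 on the log2 scale pooled over the groups against a median of 0.12, and limma's standard error is wider because it borrows the spread of other genes. Spot intensities were not used here, so whether the Marco spots were saturated, which would alter its differences, was not tested.

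Msr1, the class A receptor known as SR-A, read 2.03 and 2.19 in RagKO silica and 0.85 and 0.85 in RagKO saline, against -0.32 and -0.49 in WT silica and -0.49 and -0.55 in WT saline. Every RagKO array was above every WT array, and the 2 WT groups overlapped. Silica raised Msr1 in RagKO by 1.26 (SE 0.11, limma adjusted p = 7.13e-05). In WT the difference was 0.11, with a 95% interval of -0.14 to 0.36 (limma adjusted p = 0.514).

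Cd36, the class B receptor for oxidized lipids, read 3.07 and 3.31 in RagKO silica and 4.10 and 4.21 in RagKO saline, against 2.02 and 2.39 in WT silica and 1.45 and 1.47 in WT saline, as the average of its 2 probes. No groups overlapped, and silica went with opposite directions in the genotypes. It fell by 0.96 in RagKO (SE 0.14, limma adjusted p = 0.000931) and rose by 0.75 in WT (SE 0.14, limma adjusted p = 0.00563), 1.68-fold.

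Lgals3, the gene of galectin-3, read 0.60 and 0.57 in RagKO silica and -1.49 and -1.33 in RagKO saline, against -0.11 and -0.73 in WT silica and -0.77 and -0.73 in WT saline. The RagKO silica arrays were the highest and the RagKO saline arrays the lowest, while the WT silica pair was spread out, with replicate 2 next to the WT saline arrays. Silica raised Lgals3 in RagKO by 2.00 (SE 0.17, limma adjusted p = 6.21e-05), and 0.345% of genes rose as much or more. In WT the difference was 0.33 (95% interval -0.05 to 0.72, limma adjusted p = 0.206). The WT value rests on which silica array is kept: it was 0.64 without WT silica replicate 2 (limma adjusted p = 0.0178) and 0.02 without WT silica replicate 1. On those arrays the interstitial and tissue macrophage genes averaged 2.07 on replicate 1 and 1.58 on replicate 2, and their part in the Lgals3 spread was not tested.

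The silica effect in RagKO minus that in WT passed the test for all 4 genes, a comparison in which 23.3% of all genes passed (11% higher, 12.3% lower). It was 1.77 for Marco (SE 0.14, limma adjusted p = 8.01e-05), 1.67 for Lgals3 (SE 0.24, limma adjusted p = 0.0012), 1.15 for Msr1 (SE 0.16, limma adjusted p = 0.00091) and -1.71 for Cd36 (SE 0.20, limma adjusted p = 0.000394). Only 0.69% of genes had as large a positive difference as Marco, and 1.48% had as large a negative difference as Cd36. Taken relative to the mean of the leukocyte genes on each array, the difference for Msr1 was 0.38 and no longer passed (limma adjusted p = 0.1), and relative to interstitial and tissue macrophage genes it was 0.37 (limma adjusted p = 0.315). Relative to these macrophage genes the difference kept its call for Marco (1.00), Lgals3 (0.89) and Cd36 (-2.48). Both centrings were chosen after the data were seen.

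**Figure D2:**
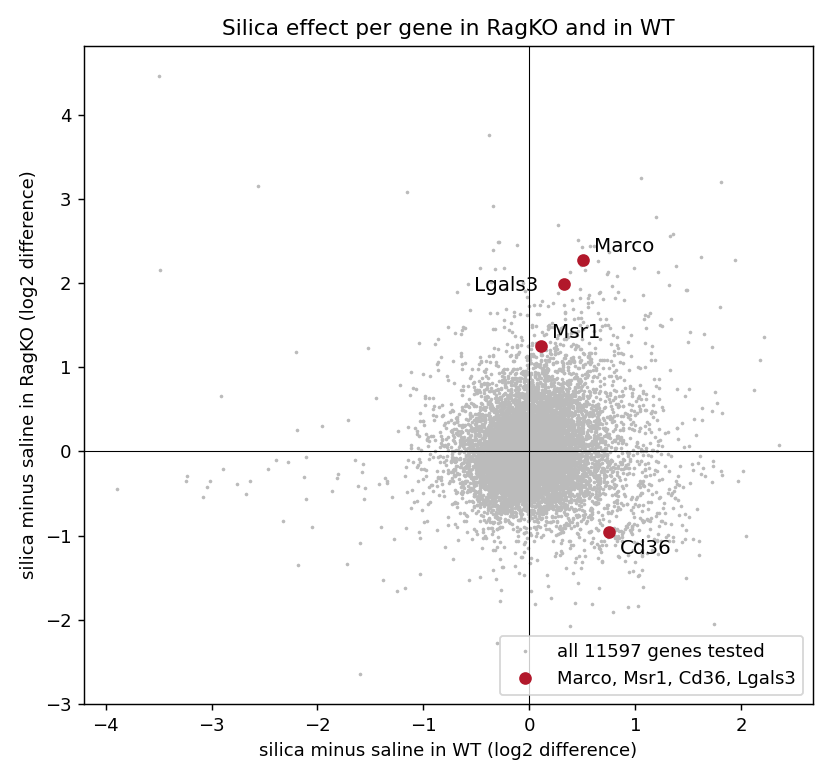
Silica minus saline as a log2 difference in WT (x axis) and in RagKO (y axis) for all 11597 genes tested (grey) with Marco, Msr1, Cd36 and Lgals3 in red. Marco (2.28 in RagKO, 0.51 in WT), Lgals3 and Msr1 lie high above the centre, and Cd36 (-0.96 in RagKO, 0.75 in WT) lies below and to the right of it.

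After silica, all of Msr1, Lgals3 and Cd36 were higher in RagKO than in WT leukocytes and Marco was lower. Msr1 was 5.72-fold higher (log2 difference 2.52, SE 0.11, limma adjusted p = 1.64e-07), and 0.216% of genes were as far up. Lgals3 was 2.01-fold higher (1.01, SE 0.17, limma adjusted p = 0.000611) and Cd36 1.98-fold higher (0.98, SE 0.14, limma adjusted p = 0.000198), while Marco was 1.62-fold lower (-0.69, SE 0.10, limma adjusted p = 0.000185). Of all genes, 60.1% passed here, 33.7% higher and 26.4% lower. Relative to interstitial and tissue macrophage genes, the differences of Lgals3 (0.44, limma adjusted p = 0.103) and Cd36 (0.41, limma adjusted p = 0.126) did not pass, and those of Msr1 (1.94) and Marco (-1.27) did.

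Without silica the genotypes differed as well, and the receptors went in opposite directions. In RagKO saline leukocytes Cd36 was 6.47-fold and Msr1 2.59-fold higher than in WT saline leukocytes, while Marco was 5.53-fold and Lgals3 1.58-fold lower. The log2 differences were 2.69 for Cd36 (SE 0.14, limma adjusted p = 1.87e-07), 1.37 for Msr1 (SE 0.11, limma adjusted p = 2.81e-06), -2.47 for Marco (SE 0.10, limma adjusted p = 5.21e-08) and -0.66 for Lgals3 (SE 0.17, limma adjusted p = 0.00672). In this comparison 66.2% of all genes passed, 37% higher and 29.2% lower, so passing it is common. The sizes were less common for Cd36 and Marco: 0.483% of genes were as far up as Cd36 and 1.26% as far down as Marco, against 6.79% for Msr1 and 17.8% for Lgals3. Because the leukocyte genes were also lower in RagKO saline (8 of 10, with 1 higher), the difference was computed relative to their mean too. It was then -1.43 for Marco and 3.73 for Cd36, and for Lgals3 the sign turned to 0.38 (limma adjusted p = 0.0421). Of the 10 leukocyte genes, Laptm5 differed most, averaging 0.003 in RagKO saline and 4.86 in WT saline. The difference was not recomputed without Laptm5, so the turn of sign for Lgals3 may rest on this gene. The Lgals3 call was also lost without RagKO saline replicate 1 (-0.58, limma adjusted p = 0.0522).

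**Figure D3:**
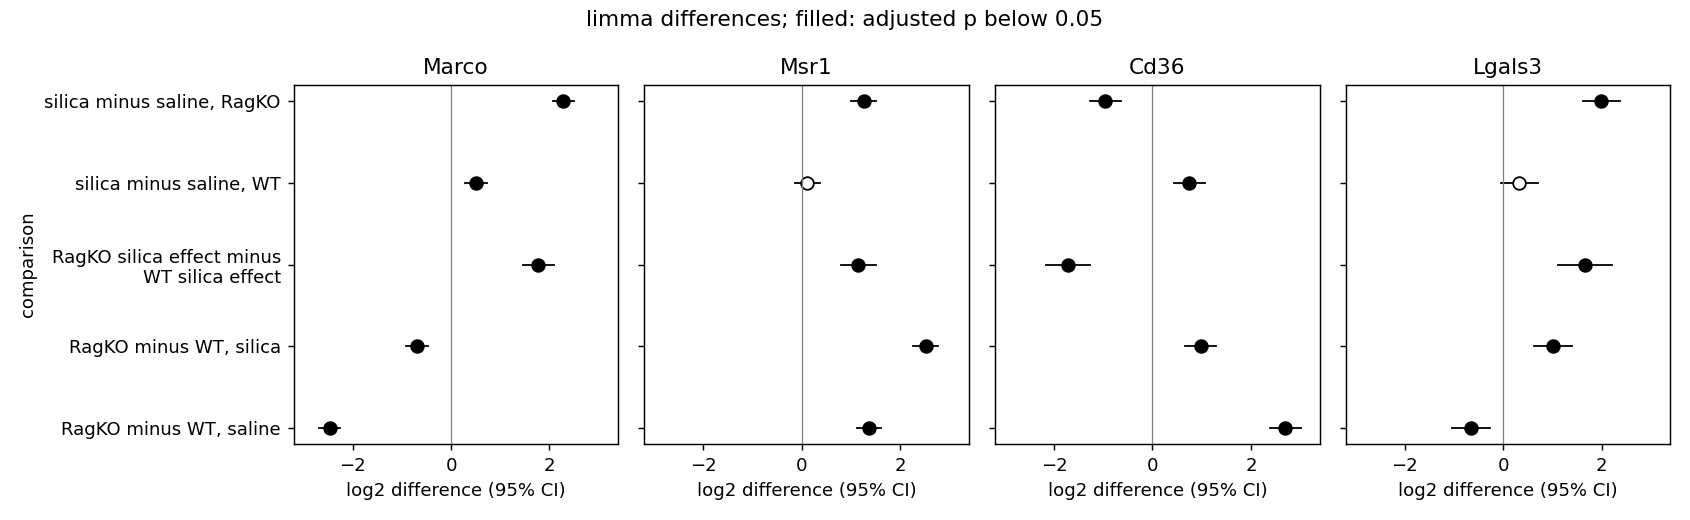
Limma log2 differences (points) with 95% confidence intervals (lines) for 5 comparisons (rows) of Marco, Msr1, Cd36 and Lgals3 (panels), filled where the adjusted p is below 0.05. Only the WT silica differences of Msr1 (0.11) and Lgals3 (0.33) are open, and Cd36 shows signs opposite to those of Marco in every comparison except silica in WT.

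Ordered by mean level, Marco ran from WT silica (7.08) through WT saline (6.57) and RagKO silica (6.38) to RagKO saline (4.10). The arrays of its neighbours RagKO silica and WT saline did not overlap (as for 83.8% of all genes) and differed by more than the spread of Marco's own replicates, but the difference did not pass limma's test (-0.18, 95% interval -0.41 to 0.04, limma adjusted p = 0.128, in a comparison that 62.8% of all genes passed), and their order turned round under quantile normalization and relative to leukocyte genes. Msr1 ran from RagKO silica (2.11) through RagKO saline (0.85) to WT silica (-0.41) and WT saline (-0.52), and only the last pair did not pass; 66.8% of all genes passed between RagKO saline and WT silica. Cd36 ran from RagKO saline (4.15) through RagKO silica (3.19) and WT silica (2.21) to WT saline (1.46), with every neighbouring pair past the test. Lgals3 ran from RagKO silica (0.59) through WT silica (-0.42) and WT saline (-0.75) to RagKO saline (-1.41), and the WT pair did not pass. The call of its last step was lost without RagKO saline replicate 1, as given above. Of all genes, 32.7% passed for silica in RagKO and 19.7% for silica in WT. Between the genotypes 60.1% passed after silica and 66.2% after saline.

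The 2 Cd36 probes gave 1 order of groups and the same calls, but different sizes. Probe A_51_P375138 read 2.85 and 3.10 in RagKO silica and 3.51 and 3.71 in RagKO saline, against 2.17 and 2.63 in WT silica and 1.78 and 1.96 in WT saline. Probe A_51_P375146 read 3.29 and 3.53 in RagKO silica and 4.69 and 4.70 in RagKO saline, against 1.88 and 2.16 in WT silica and 1.12 and 0.98 in WT saline. The RagKO saline arrays were the highest and the WT saline arrays the lowest on both. In the fit over all probes, the RagKO minus WT difference after saline was 1.74 (SE 0.16) on A_51_P375138 and 3.64 (SE 0.14) on A_51_P375146. The fall after silica in RagKO was -0.64 (SE 0.16) and -1.28 (SE 0.14) on the same probes, and the rise in WT 0.53 (SE 0.16) and 0.97 (SE 0.14). The sizes on A_51_P375146 were larger in each of these comparisons. The platform lists a different transcript accession for each probe.

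**Figure D4:**
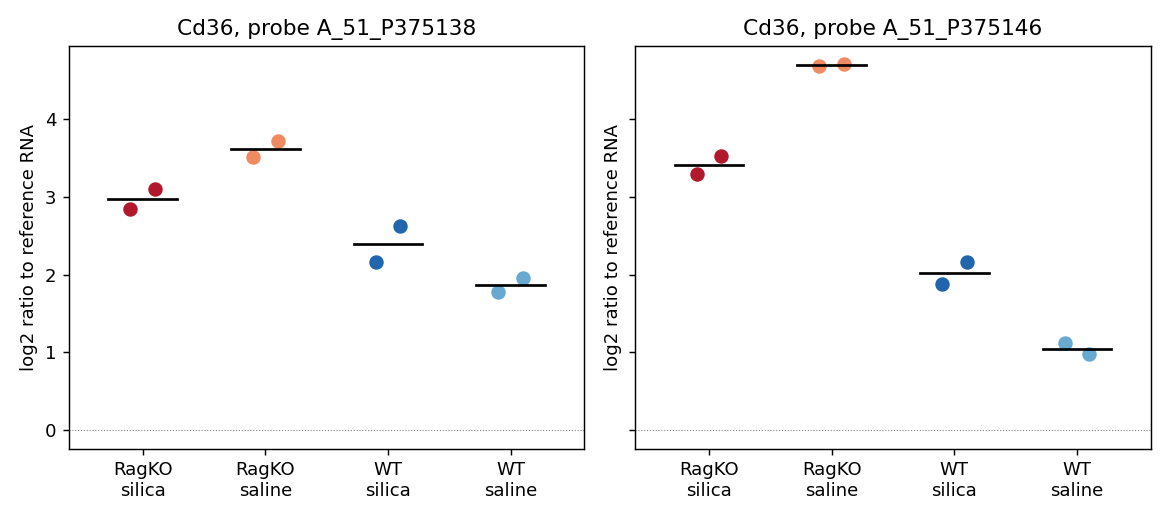
Log2 ratio to the reference RNA (y axis) on each array (points) with the group mean (bar) for the 2 Cd36 probes, in RagKO silica, RagKO saline, WT silica and WT saline. Both probes run in 1 order, and the distance between RagKO saline and WT saline is 1.74 on the left probe and 3.64 on the right one.

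The 4 genes did not share 1 pattern over the 8 arrays. After each gene was centred on its own mean, the root mean square difference between their log2 ratios was smallest between Cd36 and Msr1 (0.83), Marco and Lgals3 (0.90) and Msr1 and Lgals3 (0.93). It was largest between Marco and Cd36 (2.06). All 4 varied more than most genes, with a range over the arrays of 2.99 for Marco, 2.76 for Cd36, 2.74 for Msr1 and 2.09 for Lgals3. A larger range was found for 1.81% of genes beyond Marco, 2.49% beyond Cd36, 2.6% beyond Msr1 and 7.94% beyond Lgals3.

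The genes with the nearest pattern over the 8 arrays were named by the same root mean square difference. Nearest to Marco were Zmynd15 (0.24), the collagen gene Col3a1 (0.27) and the interferon regulatory factor gene Irf5 (0.27). Nearest to Msr1 were Atp6v1c1, a subunit of the lysosomal proton pump (0.08), Nampt, an enzyme of NAD synthesis (0.16), and Irgm1, an interferon-induced GTPase (0.17). Nearest to Cd36 were the actin-bundling Pls3 (0.10), Ccdc113 (0.12) and Urah (0.13). Nearest to Lgals3 were Lrp12 (0.11), the RNA sensor gene Dhx58 (0.13) and Ctss, which encodes the lysosomal protease cathepsin S (0.16). Atp6v1c1 read 0.25 and 0.50 in RagKO silica and -0.78 and -0.74 in RagKO saline, against -1.97 and -2.08 in WT silica and -2.09 and -2.03 in WT saline. As for Msr1, every RagKO array was above every WT array and the WT groups overlapped. Atp6v1c1 was picked by its nearness to Msr1 on these same arrays, so this likeness follows from the choice. After quantile normalization 1 of these 3 neighbours was kept for Marco, Cd36 and Lgals3, and 2 for Msr1.

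Other scavenger and particle receptors were read from a list of 28 genes, of which 20 were measured beside the 4 genes. Of all genes, 32.7% passed for silica in RagKO, 19.7% for silica in WT and 23.3% for the difference of the silica effects. After silica in RagKO, 11 of 20 rose and 0 fell (median log2 difference 0.44, against -0.03 over all genes), led by the inhibitory Fc receptor Fcgr2b (1.48) and Clec7a, the beta-glucan receptor dectin-1 (1.16). Relative to leukocyte genes 7 rose and 2 fell, and relative to interstitial and tissue macrophage genes 2 rose and 6 fell. After silica in WT, 6 rose and 1 fell (median 0.05), led by Scarf1 (1.04) and Stab1 (1.40), receptors known from endothelium, and 9 rose and 0 fell relative to leukocyte genes. In RagKO against WT, 11 were higher and 3 lower after silica, where 60.1% of all genes passed, led by Fcgr2b (2.26) and Clec7a (1.88). After saline 9 were higher and 4 lower, a share near the 66.2% of all genes, led by the class B receptors Scarb1 (-1.55), which takes up lipoprotein, and Scarb2 (1.31), a lysosomal membrane protein. The silica effect differed for 6, 5 upward and 1 downward, with Fcgr2b at 1.72 and Clec7a at 1.15, but relative to leukocyte genes the split turned to 1 upward and 7 downward.

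Of 7 other galectin family genes and binding partners measured, 4 rose and 2 fell after silica in RagKO, and 0 of 7 passed in WT. The shares of all genes were 32.7% in RagKO and 19.7% in WT. At an unadjusted p below 0.05, 4 of the 7 passed in WT, and 6 rose relative to leukocyte genes. Lgals3bp, which encodes a secreted glycoprotein that binds galectin-3, rose by 2.16 in RagKO and Lgals9 by 1.27. Lgals3bp read 2.20 and 2.13 in RagKO silica and -0.11 and 0.14 in RagKO saline, against 1.88 and 1.30 in WT silica and 1.01 and 1.12 in WT saline. As for Lgals3, the RagKO saline arrays were the lowest, and the silica effect in RagKO minus that in WT was 1.63 (limma adjusted p = 0.00137). Relative to leukocyte genes and relative to macrophage genes alike, 2 of the 7 rose and 3 fell after silica in RagKO.

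After silica in RagKO, where 32.7% of all genes passed, 10 of 17 lipid handling genes tied to CD36 and PPAR-gamma rose and 1 fell. This was the reverse of Cd36 itself. Relative to leukocyte genes 4 rose and 5 fell, and relative to macrophage genes 2 rose and 6 fell. The lysosomal lipase gene Lipa rose by 1.48 and the cholesterol exporter gene Abcg1 by 1.23. In RagKO against WT, 9 of the 17 were higher and 3 lower after silica, where 60.1% of all genes passed. The lipoprotein lipase gene Lpl (1.80) and the fatty acid-binding protein gene Fabp4 (1.41) led. After saline, where 66.2% of all genes passed, 10 were higher and 5 lower, with Abcg1 at -2.07 and the desaturase gene Scd2 at 2.10. In WT, where 19.7% of all genes passed, silica raised 6 and lowered 3. The desaturase gene Scd1 was at 1.13 and the fatty acid transporter gene Slc27a1 at -0.70. After quantile normalization 3 of the 17 rose and 3 fell.

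Inflammasome and lysosome damage genes, read because silica taken up through scavenger receptors is known to rupture lysosomes, rose in 9 of 15 cases and fell in 0 after silica in RagKO. The share of all genes that passed there was 32.7%. The cytokine gene Il1a rose by 2.26 and Ctss by 2.00, while 4 rose and 3 fell relative to leukocyte genes and 2 rose and 4 fell relative to macrophage genes. In WT, where 19.7% of all genes passed, 4 rose and 1 fell, with Txnip at 0.79 and Il18 at 0.54. Of 14 genes on a list of upstream regulators of the receptors, 10 rose and 1 fell in RagKO. The interleukin-4 receptor gene Il4ra was at 1.66. The gene that fell was the quinone reductase gene Nqo1 (-1.82), a target of the antioxidant response and not itself a regulator. The 10 genes that rose were not sorted into regulators and targets. In WT 3 rose and 0 fell, a share near the 19.7% of all genes, led by Csf2 (0.93) and Klf4 (0.93). Relative to macrophage genes the RagKO split of this list was 3 and 3.

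Genes of apoptotic cell uptake, a route in which Cd36 also takes part, rose in 8 of 16 cases and fell in 0 after silica in RagKO. The share of all genes that passed there was 32.7%. The complement genes C1qb (1.64) and C1qa (1.52) led the rise. Relative to leukocyte genes 5 rose and 4 fell, and relative to macrophage genes 2 rose and 5 fell. In WT, where 19.7% of all genes passed, 3 rose and 2 fell, with the bridging ligand gene Gas6 at 1.27.

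Macrophage and other cell markers moved with several of these results. Interstitial and tissue macrophage genes (15 measured of 18) averaged 2.38 to 2.41 in RagKO silica, 1.63 to 1.73 in RagKO saline, 1.58 to 2.07 in WT silica and 1.86 to 1.89 in WT saline. After silica in RagKO, where 32.7% of all genes passed, 9 of them rose and 2 fell. Ms4a7 (1.89) and the lysosomal glycoprotein gene Gpnmb (2.46) led. Alveolar macrophage genes (16 measured of 19) averaged 2.96 to 3.16 in RagKO silica, 2.46 to 2.56 in RagKO saline, and 2.55 on each of the 4 WT arrays. Unlike Marco, the mean of this list in RagKO saline was close to that in WT saline. In that comparison, which 66.2% of all genes passed, 8 of 16 list genes were higher and 6 lower. Among those lower were Itgax (-1.73), the gene of CD11c, and Plet1 (-1.29). Lpl and Fabp4, named after their values were seen, went the other way. Lpl averaged 1.74 in RagKO saline and 0.22 in WT saline, and Fabp4 4.38 and 3.45. Fibroblast and smooth muscle genes (15 measured of 16) averaged 1.23 to 1.43 in RagKO silica, 1.41 to 1.45 in RagKO saline, 0.82 to 1.03 in WT silica and 0.21 to 0.23 in WT saline. Endothelial genes (14 measured of 16), the other lung source of Cd36, averaged 2.75 in RagKO silica on both arrays, 2.48 to 2.56 in RagKO saline, 3.16 to 3.22 in WT silica and 2.85 in WT saline on both arrays. Platelet genes (5 measured of 10) averaged 1.02 in RagKO silica on both arrays, 1.34 to 1.35 in RagKO saline, 0.50 to 0.56 in WT silica and 0.65 to 0.70 in WT saline. Lung epithelium genes (16 measured of 17) averaged 2.50 to 2.70 in RagKO silica, 2.76 to 2.83 in RagKO saline, 2.73 to 2.98 in WT silica and 1.96 to 2.03 in WT saline. Like Cd36, the epithelial genes rose after silica in WT (12 of 16, with 1 lower, median 1.03). In the difference of the silica effects 13 of 16 were lower and 0 higher (median -1.18). For fibroblast genes the counts were 11 of 15 higher and 0 lower in WT, and 1 higher and 9 lower in the difference. Of all genes, 19.7% and 23.3% passed in these 2 comparisons. In RagKO against WT after silica (60.1% of all genes), where Cd36 was higher, 5 epithelial genes were higher and 8 lower. Of the fibroblast genes 8 were higher and 3 lower there.

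The endothelial mean was lowest in RagKO saline, where Cd36 was highest, but its genes went both ways. After saline 4 of 14 were higher and 7 lower in RagKO than in WT, a comparison that 66.2% of all genes passed. The group means of 3 of the 14 endothelial genes ran in the order of Cd36, from RagKO saline through RagKO silica and WT silica to WT saline, as did those of 7 of 15 fibroblast genes, 5 of 16 epithelial genes, 1 of 5 platelet genes and 11.9% of all genes. The 3 endothelial genes, named after their values were seen, were Emcn, Gpihbp1 and Tek. Emcn averaged 4.63 in RagKO silica, 5.69 in RagKO saline, 4.10 in WT silica and 3.39 in WT saline. The part of these cell types in the Cd36 differences was not tested.

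**Figure D5:**
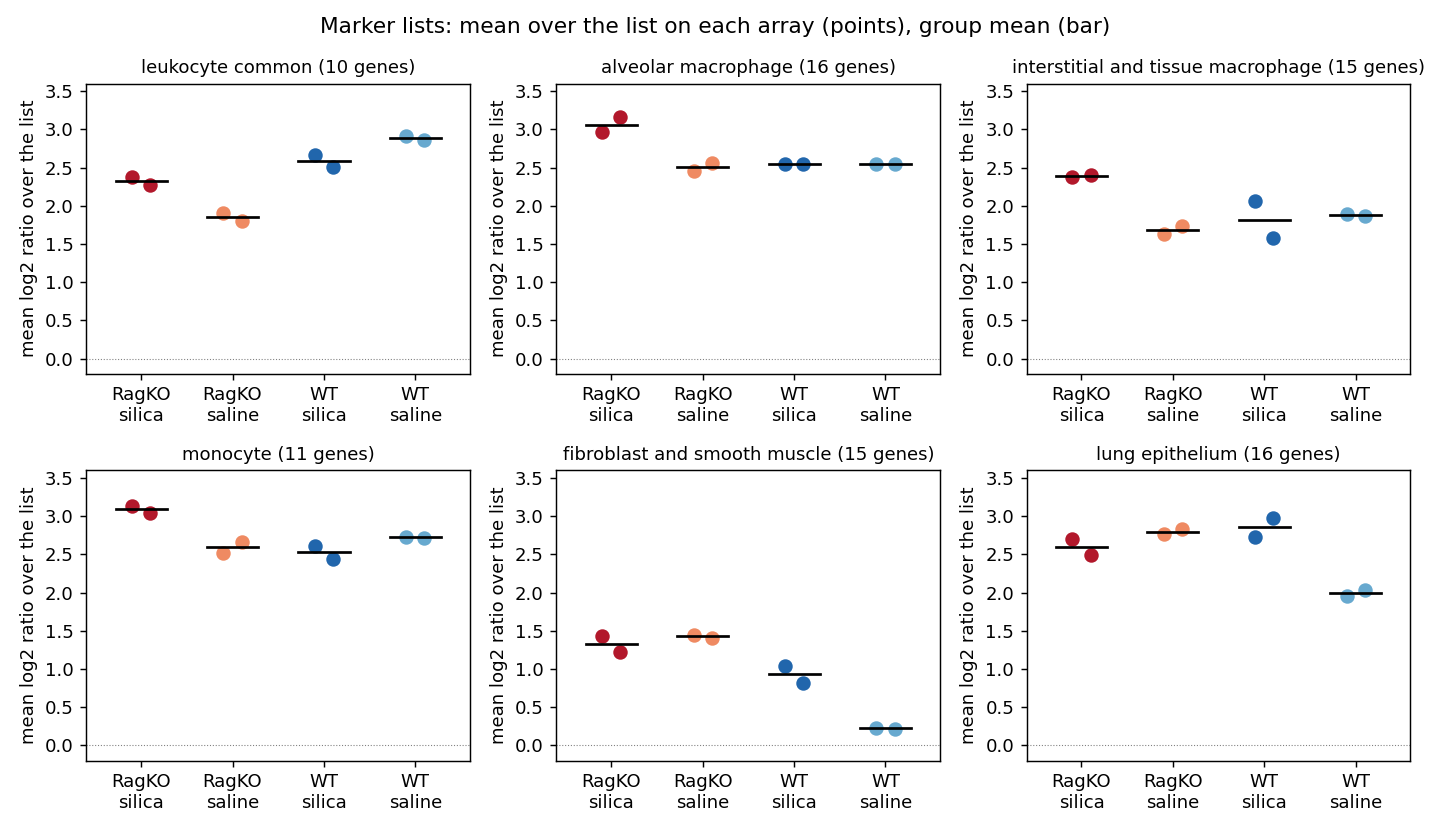
Mean log2 ratio over 6 marker lists (y axis, 1 scale) on each array (points) with the group mean (bar) for RagKO silica, RagKO saline, WT silica and WT saline. Leukocyte genes are lowest in RagKO saline (1.80 to 1.91), macrophage and monocyte lists are highest in RagKO silica, and fibroblast genes are lowest in WT saline (0.21 to 0.23).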

How the data were processed

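Per the labels, each 2-channel Agilent array held leukocyte RNA in Cy5 beside reference RNA in Cy3, and no array swapped the dyes. The deposited table holds 1 log10 ratio per probe and array; its base was inferred from the values, since the largest is a 737-fold ratio as log10 and only 7.3-fold as log2. No source used here describes background correction, dye normalization, centring or probe filters; spot intensities were not used here, so weak or saturated spots could not be told apart. Column medians ran from -0.0725 to -0.0521 on the deposited scale, and no 2 columns were identical.

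A factor of 3.3219 turned them into log2 ratios. Of 16251 probes, 14716 had a value on all 8 arrays; probes with 1 gene symbol were averaged per gene, which left 11597 genes, 1478 with several probes. Symbols were checked by Entrez identifier against RefSeq (GRCm38.p6), which changed 0. Contrasts were fitted with limma 3.58.1 in R 4.3.3 on the 8 arrays (4 residual degrees of freedom) and tested on simulated data. Having 2 arrays a group limits the precision. The named genes were the 4 genes, the 3 nearest to each in pattern and, of each list, up to 2 with the smallest p in a comparison. The genes and lists were chosen with earlier results of these data known. Replicate numbers were not used as pairs in the main fit. Deviations of replicate 1 from the group means correlated between groups with r between -0.0728 and 0.111. This does not show whether replicates with the same number shared a batch. Alternatives were median centring, quantile normalization, a looser probe filter, the highest probe, single probes, another variance model, fits of only the groups compared, a replicate block and leaving out each array; centring on leukocyte or macrophage genes was added after the data were seen.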

Additional observations from a re-analysis of the deposited data

Results flagged for a closer look

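The silica effect in RagKO minus the silica effect in WT passed limma's test for all 4 genes. Of all genes, 23.3% passed there (11% higher, 12.3% lower). The difference was 1.77 for Marco, 1.15 for Msr1, -1.71 for Cd36 and 1.67 for Lgals3. Among the genes of the lists that were named by the smallest p in this comparison, it was positive for Fcgr2b (1.72), Clec7a (1.15), Lgals3bp (1.63), C1qb (2.02), C1qc (1.52), Lipa (2.25), Ctss (2.06), Il1a (1.62) and Il4ra (1.32). It was also positive for Chil3 (3.39), Itgax (1.15), Ms4a7 (2.58), Laptm5 (2.11) and Lcp1 (1.38), which are macrophage and leukocyte markers, but for Itgax it turned to -0.065 (limma adjusted p = 0.946) when probes with values on at least 6 arrays were kept. It was negative for Lgalsl (-0.87), Scd1 (-1.33) and Nqo1 (-1.87). Of the lung epithelium genes, from which none is named here, 0 of 16 were higher and 13 lower. Of the fibroblast and smooth muscle genes, 1 of 15 was higher and 9 were lower. A group of 2 arrays is too small to look for an array far from the others.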

How the results depend on the processing

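Over all alternatives other than the 2 centrings on cell markers, Msr1 and Cd36 kept their direction and their side of the threshold in all 5 comparisons. Marco did so except for silica in WT, and Lgals3 except for silica in WT and the saline genotype difference. Without WT saline replicate 1 or 2 Marco in WT was 0.51 or 0.50 with no call; leaving out arrays gave 0.023 to 0.64 for Lgals3 in WT and -0.73 to -0.58 for Lgals3 in RagKO against WT after saline. The number of genes past the threshold then ran from 2380 to 3842 for silica in RagKO (3795 with all arrays), from 861 to 2389 for silica in WT (2283) and from 1647 to 2485 for the difference of the silica effects (2697); the fits hold 1 array less. Centred on macrophage genes, the calls were lost for Marco in WT (0.56), Msr1 in the difference of silica effects (0.37), Cd36 (0.41) and Lgals3 (0.44) in RagKO against WT after silica, and Lgals3 after saline (-0.46). Centred on leukocyte genes, Msr1 (0.42) and Lgals3 (0.63) passed in WT and Msr1 in the difference did not (0.38). Lgals3 after saline turned to 0.38, where 1 leukocyte gene, Laptm5, differed far more between the genotypes than the others. With this centring 2 of 4 genes kept their order of groups, and 3 of 4 under quantile normalization. The silica effect difference of Itgax turned to -0.065 when probes with values on at least 6 arrays were kept. With the replicate block, the counts were 3795 for silica in RagKO, 2244 for silica in WT and 2669 for the difference of the silica effects, and no call of the 4 genes changed. Spot signal over background was not used here, so its limits on weak probes are unknown.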
